A study of Sus scrofa with 2 samples.

Results

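Sustentacular nuclei of the olfactory mucosa that were marked by CPM, MGAM2 and CYP2F1 numbered 724 of the 10769 barcodes in the 2 deposited count tables, and of the 9034 nuclei that had at least 1000 unique molecular identifiers (UMIs, each a transcript molecule counted once). They were chosen by measured counts in both libraries. A member had at least 2 UMIs of ABCA13, at least 1 UMI of ATP13A5, SLCO1A2 or DPP10, no UMI of TP63, and UMIs of at most 1 of the genes TACR1, COL28A1, PADI1 and SPDEF. Its summed UMIs of CPM, MGAM2 and CYP2F1 reached 2 and exceeded the summed UMIs of ACSM3, GLDN, SEC14L3 and GLYATL3. These 555 wild type and 169 knockout nuclei are called the CPM type below. Nuclei that passed the same gates with the second sum ahead and at least 2, 238 wild type and 384 knockout nuclei, are called the ACSM3 type and served as the comparison.

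Single nuclei were isolated from frozen olfactory neuroepithelium of newborn pigs (Sus scrofa), in 1 library from a wild type piglet and 1 library from a CFTR knockout piglet, which the protocol calls CFTR-null. The labels give no litter, sex, breed or position of the dissected piece, and the sources used here do not describe the CFTR allele. Each value therefore stands for 1 animal and 1 dissection. Differences below compare 2 libraries, have no replicate check and were not tested.

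Sustentacular cells are the supporting cells of the olfactory epithelium: they span its depth, wrap the sensory neurons, and carry microvilli at the surface facing the nasal cavity. They hold large amounts of cytochrome P450 and conjugating enzymes, which degrade inhaled chemicals and odorants, and transport ions and water at the mucus layer. In rodents the epithelium is divided into dorsal and ventral zones, which differ in neurons and also in the enzymes of their sustentacular cells. CFTR is the anion channel whose loss causes cystic fibrosis.

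The members of the CPM type had a median of 3116 UMIs in the wild type and 2936 in the knockout library, and 2478682 and 649060 UMIs in all. Mitochondrial transcripts were 3.50% and 1.72% of those UMIs, a library difference that nuclei outside both types also had (2.62% and 1.22%). Of the 8 barcodes that occurred in both tables, 1 was a wild type member of the CPM type and none a knockout member. Levels are given as UMIs of a gene per 1000000 UMIs of the nuclei (UPM, since CPM is here a gene), with 95% intervals that cover counting error only. Which stretch of a transcript the counts cover is not given, so levels are compared within a gene and not between genes.

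Markers of sustentacular cells that the rule did not use were present. Of 30 such genes listed, 26 were in the tables, and their summed level was 6526 UPM in wild type and 4890 in knockout nuclei of the CPM type, against 2012 and 2460 in nuclei outside both types. These markers included CYP2A19, the Notch receptor NOTCH2 (349 and 357 UPM) and the epithelial keratin KRT8 (191 and 223, against 103 and 188 outside both types). The epithelial adhesion molecule EPCAM had 157 and 157, against 139 and 202 in the other nuclei. It was thus little above them in the wild type library and below them in the knockout library. The summed markers thus stood above the other nuclei in both libraries, as the sustentacular label has it.

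Transcripts of other cells were found in the same nuclei. Of 10 mature neuron markers in the tables, 10 were detected in wild type and 9 in knockout nuclei of the CPM type, with a summed level of 1325 and 1514 UPM, against 4871 and 4223 in a gate of mature neurons (nuclei with at least 2 neuron genes and no ABCA13). Fibroblast markers summed to 299 and 399 UPM, and all 6 were detected. At least 2 genes of the neuron gate were seen in 104 wild type and 23 knockout members. The wild type and knockout sums of respiratory secretory markers were 459.5 and 1018 UPM, and those of Bowman gland markers 285 and 87.8. The part of such free RNA or doublets in the gene differences was not tested beyond the values given beside them.

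By the genes that divide the 2 sustentacular types, some nuclei lay between them. These genes are those of the rule, so their spread cannot decide between a range and 2 separate groups. The part of free RNA and doublets in the nuclei between the ends was not tested. Among nuclei of the shared gates with at least 5 UMIs of the 7 dividing genes, 238 of 699 wild type nuclei had 90% to 100% of those UMIs from CPM, MGAM2 and CYP2F1, and 66 had under 10%. In the knockout library 33 of 460 nuclei lay at the upper end and 213 at the lower end. The middle, from 30% to 70%, held 19.0% of nuclei in the wild type library and 19.1% in the knockout library. Both libraries thus had nuclei at each end and about the same share between them, and differed in which end was larger.

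**Figure D1:**
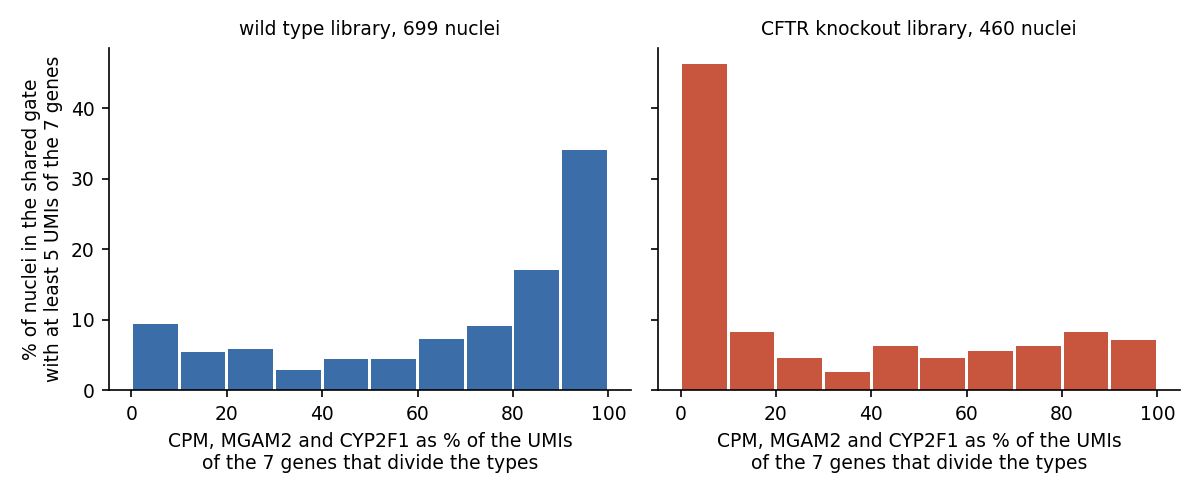
Nuclei of the shared sustentacular gates with at least 5 UMIs of the 7 dividing genes, by the percentage of those UMIs that came from CPM, MGAM2 and CYP2F1 (x axis, in steps of 10), as a percentage of the nuclei of each library (y axis). The wild type library peaks at the upper end (238 of 699 nuclei) and the knockout library at the lower end (213 of 460 nuclei).

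Close to the threshold, 27 wild type and 13 knockout members had a sum of exactly 2, and 32 and 18 led the other sum by only 1. Just outside it, 11 and 5 nuclei had a sum of 1 with the other sum below it, and 32 and 20 had equal sums of at least 1. The median sum was 12 in wild type and 8 in knockout members, and the median other sum was 1 and 2. An other sum of at least 2 was found in 276 wild type and 93 knockout members. Membership was therefore a matter of the larger sum, and many members also held transcripts of the other set.

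The CPM type was a smaller part of the knockout library. It accounted for 12.8% of wild type nuclei with at least 1000 UMIs (interval 11.8% to 13.9%, 555 of 4329) and 3.59% of the knockout nuclei (3.08% to 4.16%, 169 of 4705), a 3.57-fold difference and a log2 ratio of -1.84 (-2.08 to -1.59). The ACSM3 type went the other way, with 5.50% (4.84% to 6.22%) and 8.16% (7.39% to 8.98%). Of both types together, the CPM type was 69.99% (66.7% to 73.2%) in the former and 30.6% (26.7% to 34.6%) in the latter library. The shared gates held 20.3% and 13.3% of nuclei, so that nuclei of these gates were a smaller share of the knockout library and were divided otherwise there. The gates bar nuclei by TACR1, COL28A1, PADI1 and SPDEF. Respiratory secretory markers, which include these genes, summed to 363 and 1879 UPM in nuclei outside both types. The part of this barring in the share of the gates was not tested.

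**Figure D2:**
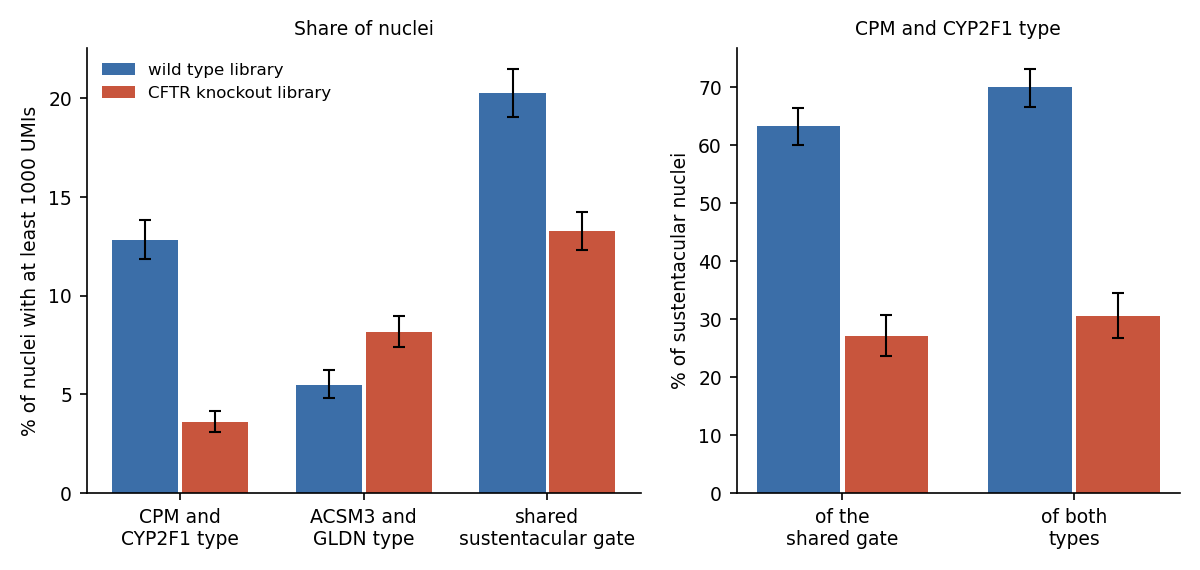
Left, shares of the nuclei with at least 1000 UMIs that were in the CPM type, in the ACSM3 type and in the shared gates; right, the CPM type as a percentage of the shared gates and of both types. Bars are single libraries and error bars are 95% Clopper-Pearson intervals: the CPM type is 12.8% and 3.59% of nuclei, and the ACSM3 type 5.50% and 8.16%.

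The shares rest on genes whose own level differed between the libraries. The summed level of ACSM3, GLDN, SEC14L3 and GLYATL3 was 155 and 289 UPM in the neuron gate and 75.3 and 189 in the fibroblast gate, higher in the knockout library, and its part in the shares was not tested. With CYP2F1 left out of the sum, the CPM type was 61.2% of both types in the wild type and 26.9% in the knockout library. With CPM alone in the sum, a choice made after the data were seen, it was 55.1% and 24.0%. Over 9 alternatives the log2 ratio of the share of both types lay between -1.36 and -1.12, and that of the share of all nuclei between -2.03 and -1.57. The knockout share was the smaller under each of these 9 alternatives.

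The neurons of the same libraries differed in zonal genes alongside these shares. NQO1, which marks dorsal neurons in rodents, was found without NCAM2 in 5.49% (4.09% to 7.19%) of 893 wild type and 18.5% (15.5% to 21.7%) of 639 knockout nuclei of the neuron gate. NCAM2, which marks ventral neurons there, was found without NQO1 in 57.7% (54.4% to 60.9%) and 22.1% (18.9% to 25.5%). Neither gene was found in 33.5% (30.4% to 36.7%) and 56.7% (52.7% to 60.5%), the largest class of the knockout library. These shares were not thinned, and the median depth of the neurons was 3784 and 2926 UMIs. Neurons with NQO1 alone and the ACSM3 type were thus both larger in the knockout library. The position of the dissected piece and the genotype cannot be told apart with 1 animal of each.

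CFTR, the targeted gene, was lower in the library labelled knockout. In the CPM type it had 276 UMIs in 117 of 555 wild type nuclei and 10 UMIs in 8 of 169 knockout nuclei. That was 111 (98.6 to 125) against 15.4 (7.39 to 28.3) UPM, a log2 ratio of -2.85 (-3.93 to -1.95). The ACSM3 type had 116 and 13.3 UPM, so that in neither library did the intervals of the 2 types separate. In the neuron gate the levels were 34.3 and 7.84. After each nucleus was thinned to 1000 UMIs, CFTR was seen in 8.47% of wild type nuclei of the CPM type and in 2.46% of wild type neurons, and without thinning in 21.1% and 6.27%, at median depths of 3116 and 3784 UMIs. In the knockout library the thinned shares were 1.78% and 0.469%, which rest on 3 nuclei each. The channel was therefore measured above the level of neurons in the wild type CPM type, and less far above that of all nuclei outside both types. In nuclei with none of the 4 barred genes, the log2 ratio of CFTR was -1.69.

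Of the 3 genes that define the type, CPM was at about the same level in both libraries while MGAM2 and CYP2F1 were lower in the knockout library. Each was measured in nuclei chosen without it, so that its own UMIs did not select them. CPM, carboxypeptidase M, a membrane enzyme that trims peptides at their end, had 1971 (1907 to 2038) UPM in 402 wild type nuclei and 1953 (1767 to 2154) in 54 knockout nuclei, a log2 ratio of -0.01 (-0.17 to 0.14). MGAM2, a relative of the brush border maltase, had 610 (579 to 643) and 239 (201 to 282), a log2 ratio of -1.35 (-1.61 to -1.10). CYP2F1, a cytochrome P450 of airway epithelium that activates inhaled aromatic compounds, had 980 (938 to 1023) and 272 (231 to 318), a log2 ratio of -1.85 (-2.09 to -1.62). The intervals of the libraries overlapped for CPM and did not for the other 2 genes.

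In the ACSM3 type, MGAM2 and CYP2F1 were also lower in the knockout library. With MGAM2 left out of the choice, MGAM2 had 134 and 73.1 UPM there, a log2 ratio of -0.87 (-1.23 to -0.52). With CYP2F1 left out, CYP2F1 had 350 and 82.8, a log2 ratio of -2.08 (-2.37 to -1.79). The lower CYP2F1 of the knockout library was thus measured in both types. After thinning, 1.34% of wild type neurons and 2.35% of knockout neurons had a CYP2F1 UMI, against 60.5% and 22.5% in the CPM type by the full rule (without thinning 7.73% and 5.63%, against 85.0% and 47.9%).

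**Figure D3:**
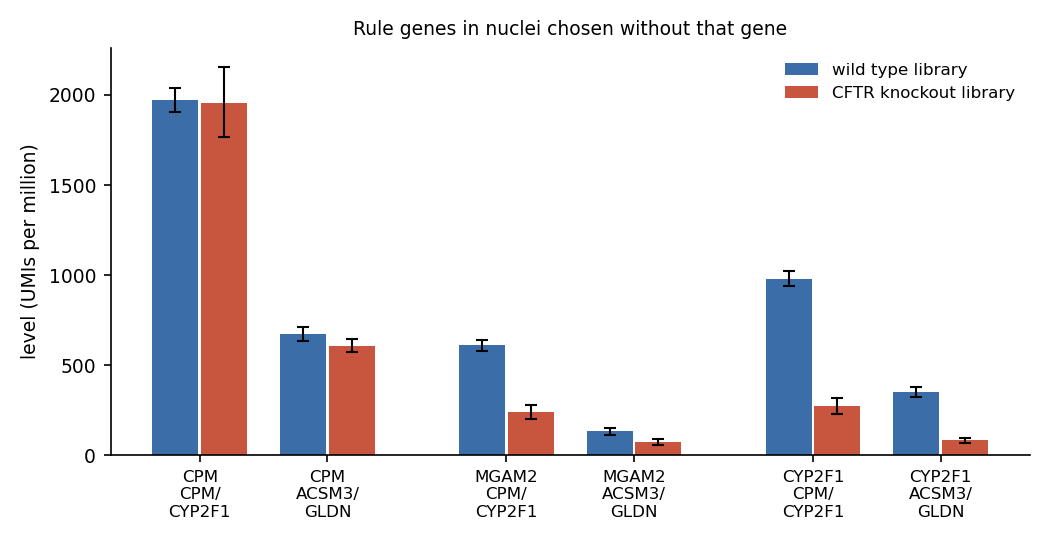
Level of CPM, MGAM2 and CYP2F1 (UPM, UMIs per 1000000 UMIs, y axis) in nuclei of each sustentacular type that were chosen without the gene shown, in the wild type and knockout libraries. Bars are sums over nuclei of 1 library with 95% Poisson intervals: CPM has 1971 and 1953 in its own type, and CYP2F1 980 and 272.

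The other rule genes describe how the members were chosen and carry no finding. ABCA13, a lipid transporter of the ABC family, had 4586 UPM in wild type and 6452 in knockout members. ATP13A5, a P5 ATPase, had 1556 and 1675, and DPP10, a subunit of potassium channel complexes, 744 and 679. SLCO1A2, an organic anion carrier, had 1128 and 812.

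Several genes outside the rule were higher in the CPM type than in all nuclei outside both types, as a description of chosen cells, and the ACSM3 type shared them. ELF5, a transcription factor of glandular epithelia, had 479 UPM in wild type members against 56.0 outside, and 533 against 50.6 in the knockout library, with 327 and 362 in the ACSM3 type. ATP6V0A4, a membrane subunit of the proton pump that acidifies fluids, had 541 against 63.3 and 601 against 64.1, with 369.5 and 365 in the ACSM3 type. CD38, an enzyme that consumes NAD, had 208 against 27.4 and 206 against 27.9, with 125 and 153 in the ACSM3 type. NRG3, a neuregulin ligand of ERBB4, had 91.6 against 7.70 and 41.6 against 4.53, with 37.03 and 13.999 in the ACSM3 type. The excess over other nuclei was thus found in each library and in both sustentacular types.

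EYA1 and EYA4 were among the 10 genes with the highest levels in members. EYA1, a transcription coactivator of sensory placodes, had 3855 against 1233 UPM in the wild type and 4046 against 1437 in the knockout library, and its relative EYA4 had 2137 against 613 and 2183 against 608. In the ACSM3 type EYA1 had 3191 and 2781 and EYA4 2706 and 3225. FSTL5, a secreted follistatin relative and another of the 10, was higher outside, with 4714 against 12708 and 1733 against 7242. The proton pump subunit ATP6V1C2 had 650 and 716 UPM in members, 579 and 602 in the ACSM3 type, and 18.8 and 110 in neurons. FOXI1, which defines ionocytes, had only 3 and 2 UMIs in members, and the microvillar factor ASCL3 1 and 0. Pump subunits were thus present in both sustentacular types, and members held hardly any transcripts of the ionocyte regulators.

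Few genes separated the CPM type from the ACSM3 type. Of 10087 genes with at least 20 UMIs over both types in each library, 46 were at least 2-fold higher in the CPM type in both libraries (0.456%) and 69 at least 2-fold lower (0.684%). The median log2 ratio over all these genes was 0.01 in the wild type and -0.04 in the knockout library. The nuclei were divided by their counts, so these ratios are descriptions. The genes named are the 12 in each direction whose smaller ratio of the 2 libraries was largest.

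MEIS1, a homeobox factor of the TALE class, was higher in the CPM type, with 330 against 117 UPM in the wild type and 319 against 94.5 in the knockout library, log2 ratios of 1.49 (1.24 to 1.75) and 1.75 (1.44 to 2.08). It was the only one of 39 measured transcription factors of the epithelial list past 2-fold in both libraries. Channel and transporter genes were among the named ones. KCNC2, a fast potassium channel, had 162 against 46.3 and 66.2 against 18.2 UPM. ASIC2, an acid-sensing sodium channel, had 63.7 against 14.7 and 90.9 against 25.2, and ATP7B, a copper pump, 41.6 against 14.7 and 63.2 against 15.4. These genes were higher in the CPM type by similar factors in each library. That follows in part from their choice by the smaller ratio of the 2 libraries.

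Signalling and matrix genes completed the higher set. RGS4, which shortens G protein signals, had 54.9 against 13.1 UPM in the wild type and 29.3 against 7.70 in the knockout library. RELB, a subunit of NF-kappa-B, had 34.7 against 8.49 and 46.2 against 12.6. The other 6 genes were NPR3, a receptor that clears natriuretic peptides, the chondroitin synthase CHSY3, the secreted CCN protein WISP3, the small heat shock protein CRYAB, BTBD11 and GREB1L, with log2 ratios between 1.47 and 2.33 in the 2 libraries.

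Genes lower in the CPM type included further metabolic enzymes. ACSM4, a medium-chain acyl-CoA synthetase that marks the dorsal zone in rodents, had 53.7 against 223 UPM in the wild type and 53.9 against 344 in the knockout library, log2 ratios of -2.05 (-2.36 to -1.75) and -2.67 (-3.21 to -2.18). ACSM3, of the same family, was among the genes that divided the types, but ACSM4 was not. SULT1C3, a sulfotransferase, had 2.42 against 35.5 and 9.24 against 45.5. PDE4B, which degrades cyclic AMP, had 217 against 802 and 112 against 1215, and was lower by more in the knockout library, with intervals of the log2 ratio that did not overlap (-2.04 to -1.74 and -3.79 to -3.10). The low members of this set, such as PAQR5, a progestin receptor, and SDSL, a serine dehydratase relative with 3 and 0 UMIs in the CPM type, rest on few molecules.

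Among the remaining named genes were 3 that are known from neurons, and neuron markers were lower in the CPM type with them. The mature neuron sum was 1325 against 2125 UPM in the wild type library and 1514 against 1888 in the knockout library, and the immature neuron sum 1809 against 2539.5 and 1111 against 1193. SYNPR, a synaptic vesicle protein, had 51.6 against 157 and 67.8 against 223 UPM. GRIA3, a glutamate receptor subunit, had 24.2 against 72.5 and 12.3 against 72.8, and DSCAM, an adhesion molecule of neurons, 25.4 against 76.4 and 9.24 against 27.3. With members left out that held 2 genes of the neuron gate, DSCAM had a log2 ratio of 0.12 in the knockout library. The cadherin DSC3, ADTRP, CCDC192 and COL25A1 had log2 ratios between -2.94 and -1.54.

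**Figure D4:**
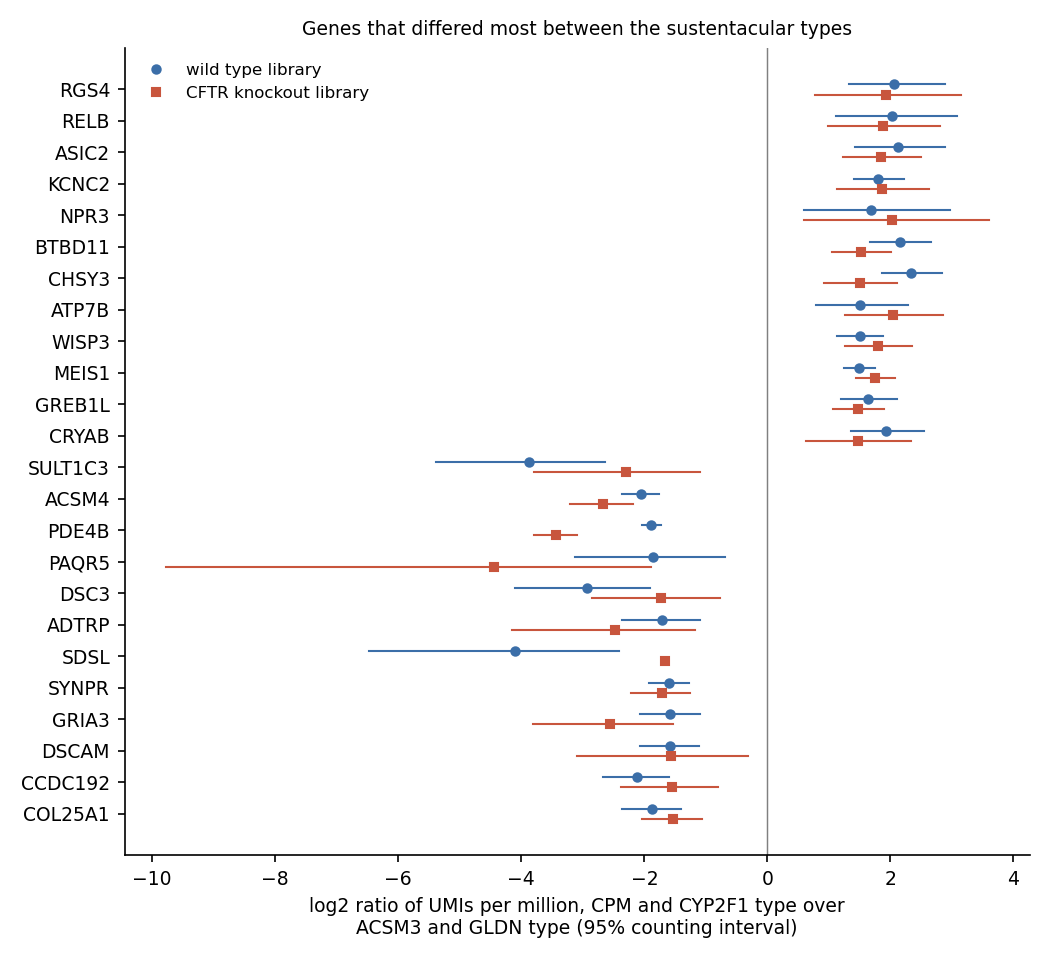
Log2 ratio of UPM in the CPM type over the ACSM3 type (x axis) for the 12 genes named in each direction, in the wild type and knockout libraries, with 95% counting intervals; SDSL was at 0 in the knockout CPM type and is drawn without an interval, at the ratio for 3 counts. MEIS1 lies at 1.49 and 1.75 and ACSM4 at -2.05 and -2.67.

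Counts of enzyme genes past 2-fold between the types were at the low share of all genes (0.456% and 0.684%). Of 18 cytochrome P450 and flavin monooxygenase genes measured, none was past 2-fold in either direction in both libraries, and neither was any of 19 conjugation and hydrolysis enzymes or 25 genes of retinoid and aldehyde metabolism. SULT1C3, named above, was not on these lists. The listed sulfotransferase SULT1C4 was seen in fewer nuclei of the CPM type, 16.2% against 58.8% in the wild type and 33.1% against 47.7% in the knockout library. CYP2A19, the porcine CYP2A enzyme of nasal mucosa, was moderately higher in the CPM type, with 2864 against 1946 UPM in the wild type and 1316 against 1023 in the knockout library. CYP3A29 had 740 against 447 and 528 against 264. SLC12A2, the sodium, potassium and chloride cotransporter that loads epithelial cells with chloride, was lower in the CPM type, with 138 against 306 and 208 against 492, log2 ratios of -1.15 and -1.24, and was the 1 gene of 25 measured anion and fluid transport genes past 2-fold in both libraries.

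Between the libraries, the CPM type differed in both directions. Of 11286 genes with at least 20 UMIs over both libraries, 441 were at least 2-fold higher in the knockout library (3.91%) and 835 at least 2-fold lower (7.4%), with a median log2 ratio of 0.03. The knockout members held 649060 UMIs, so that 1 molecule was 1.54 UPM, the level of ERG there. At a minimum of 50 UMIs the counts were 181 and 378, and with no minimum 3525 were higher. The 12 genes named in each direction had at least 50 UMIs and the counting interval farthest from 0.

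STK39, the kinase SPAK, which phosphorylates cation and chloride cotransporters such as SLC12A2, was higher in the knockout library. It had 132 UPM in wild type members (327 UMIs in 149 of 555 nuclei) and 491 in knockout members (319 UMIs in 104 of 169 nuclei), a log2 ratio of 1.90 (1.67 to 2.12). The ACSM3 type had 230 and 499, a log2 ratio of 1.12 (0.92 to 1.32). Neurons had 125 and 129 and the fibroblast gate 166 and 155, log2 ratios of 0.04 and -0.10. STK39 was thus higher in both sustentacular types and about level in the other gates, and over 13 alternatives its log2 ratio in the CPM type lay between 1.71 and 2.12. SLC12A2 itself had 138 and 208 UPM in the CPM type, a log2 ratio of 0.59 (0.29 to 0.88), which was -0.15 in nuclei with none of the 4 barred genes and between 0.36 and 0.70 under the other 12 alternatives.

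Several other genes higher in the knockout members were as high or higher in neurons. BPIFA1, a secreted protein of airway epithelium, had 16.9 and 374 UPM in the CPM type, 19.1 and 401 in neurons and 16.6 and 496 in fibroblasts. The cilium gene TMEM212 had 6.86 and 60.1 in the CPM type and 6.54 and 132 in neurons. TCTEX1D4, C11orf88, DTHD1 and ANXA1 also had neuron log2 ratios between 3.21 and 4.39. With the highest doublet scores removed, DTHD1 had a log2 ratio of -0.092 in the CPM type. A BPIFA1 UMI was found in 70.4% of knockout members and 72.0% of knockout neurons (after thinning in 37.9% and 37.9%), at median depths of 2936 and 2926 UMIs. These 6 genes were therefore at or under the level of neurons in the CPM type of the knockout library. C14orf39 had 14.1 and 126 UPM in the CPM type and 7.85 and 40.1 in neurons, so that it was higher in the members than in neurons. In fibroblasts it had 65.3 and 99.2, above the members in the wild type library. C5orf49 had 7.26 and 57.0 against 27.2 and 78.0 in neurons, and PROM1, a protein of membrane protrusions, had 11.3 and 64.7 against 62.0 and 111.

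STAP1 and CLNK, adaptor proteins of immune receptor signalling, were high in a few members only. STAP1, which was listed as a microvillar marker, had 25.8 and 112 UPM, and CLNK 11.3 and 53.9. Nuclei with at least 2 STAP1 UMIs, 9 wild type and 10 knockout members, held 54 of 64 and 70 of 73 STAP1 UMIs, and 26 of 28 and 27 of 35 CLNK UMIs. Their median depth was 8800 and 5877.5 UMIs. Most UMIs of both genes thus lay in these 9 and 10 nuclei.

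Transcripts lower in the knockout members included several immune and secreted products. LGALS13, a galectin, had 85.1 UPM in wild type members (211 UMIs in 109 nuclei) and 10.8 in knockout members (7 UMIs in 7 nuclei), a log2 ratio of -2.98 (-4.31 to -1.91). In the ACSM3 type it had 23.9 and 25.9, and in neurons 23.3 and 26.3. Fibroblasts had 33.7 and 28.3. The level of LGALS13 in wild type members was thus above that of these 3 groups in both libraries, and the knockout members were at or under the level of neurons. IL6, an inflammatory cytokine, had 56 UMIs in 33 wild type members, 22.6 UPM, and 0 in the 169 knockout members. With the 0 set to the floor of 3 counts that was 4.89-fold lower, and the interval of the log2 ratio ended at -1.94. IL6 was lower also in the ACSM3 type, with 13 and 4 UMIs, a log2 ratio of -1.84 (-3.91 to -0.15). Neurons had 3 and 0 UMIs of it and fibroblasts 1 and 3. UNC93B1, which carries nucleic acid sensing Toll-like receptors to the endosome, had 57 UMIs in the wild type and 0 in the knockout members. By the same floor it was 4.98-fold lower, with an interval that ended at -1.97. It was lower also in the ACSM3 type (12 and 1 UMIs, log2 ratio -3.73) and in fibroblasts (22 and 6, -2.20). In neurons it had 19 and 7 UMIs, a log2 ratio of -0.62 (-2.11 to 0.69). At 0 of 169 nuclei, the same floor of 3 allows up to 1.78% of nuclei with a UMI of either gene, and the 95% Clopper-Pearson interval up to 2.16%.

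MMP3, a matrix protease, had 35.5 and 3.08 UPM in the CPM type, and was lower in the knockout library also in neurons (52.1 and 3.23) and fibroblasts (237 and 8.32). BPIFB4, a secreted protein of nasal glands, had 80.3 and 13.9 in the CPM type and 242 and 25.9 in the ACSM3 type, but 23.5 and 40.1 in neurons. The sum of Bowman gland markers, which includes BPIFB4, moved with it in the CPM type as given above. The share of nuclei with a BPIFB4 UMI was nearly the same, 5.77% and 5.33% of members and 6.30% and 4.43% of the ACSM3 type. Of the wild type UMIs, 41 of 199 in members and 107 of 314 in the ACSM3 type lay in 1 nucleus. ZDBF2, AK5, FAM155A, DOCK10, UNC5B and ERG had 1 or 2 UMIs in the knockout members and 61 to 99 in the wild type members. The size of the ratio is poorly measured for these 6 genes: the interval of ZDBF2 ran from -9.73 to -1.89. ZDBF2 and AK5 were lower in the knockout library also in the ACSM3 type, neurons and fibroblasts, at log2 ratios between -3.42 and -1.04. FAM155A and UNC5B were lower also in the ACSM3 type (-1.57 and -1.90), and DOCK10 and ERG in fibroblasts (-1.09 and -1.29).

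CYP2A19 was lower in the knockout members. It had 2864 (2798 to 2931) UPM in wild type members and 1316 (1229 to 1407) in knockout members, a log2 ratio of -1.12 (-1.23 to -1.02). In the ACSM3 type it had 1946 and 1023, a log2 ratio of -0.93, and in neurons 252 and 228, a log2 ratio of -0.14. All nuclei outside both types had 674 and 318. CYP2A19 was thus lower in both sustentacular types and in the sum of all other nuclei, and about level in the neuron gate. Over 13 alternatives its log2 ratio lay between -1.35 and -1.03.

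CYP2A19 was also higher in members with a CYP2F1 UMI than in those without. CYP2F1 is a gene of the rule, and members without it entered through CPM or MGAM2, so this split is a description. Wild type members with a CYP2F1 UMI had CYP2A19 at 3016 (2943 to 3090) UPM and those without at 1845 (1700 to 2000), at median depths of 3180.5 and 2752 UMIs. In the knockout library the levels were 1519 (1393 to 1652) and 1071 (956 to 1196), at 3224 and 2741 UMIs. For CYP2A19, knockout members with a CYP2F1 UMI were therefore below wild type members without one. Not all genes went this way. CYP3A29 was higher with a CYP2F1 UMI in both libraries, but GPX6 was about level in the knockout library, with 254 against 238 UPM (365 against 217 in the wild type). MEIS1 was lower with a CYP2F1 UMI, with 317 against 416 and 273 against 374, and STK39 with 121 against 202 and 456 against 534.

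Over the list of cytochrome P450 and flavin monooxygenase genes outside the rule, 19 were measured, of which none was at least 2-fold higher and 2 at least 2-fold lower in the knockout members. Over all 11286 genes these shares were 3.91% and 7.4%. The median log2 ratio of the list was -0.35, and 7 of 19 lay above 0, against a median of 0.03 and 52.5% above 0 over all genes. The 2 lower genes were CYP2A19 and the cytochrome b5 reductase CYB5R3, which rests on 38 and 4 UMIs. CYP3A29, a CYP3A enzyme, had 740 and 528 UPM, a log2 ratio of -0.49 (-0.66 to -0.32). The reductase POR, which passes electrons to these enzymes, had 554 and 681, a log2 ratio of 0.30 (0.14 to 0.45), so that the partner of the P450 enzymes was not lower with them.

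Conjugation enzymes gave a median log2 ratio of -0.20 over 19 genes, with 1 at least 2-fold higher and none lower (3.91% and 7.4% of all genes). That gene was SULT1C4, a sulfotransferase, at 69.0 and 140 UPM in the CPM type. EPHX1, the microsomal epoxide hydrolase, had 390 and 322, and GPX6, an olfactory glutathione peroxidase, 346 and 247. Among retinoid and aldehyde genes, 2 of 28 were at least 2-fold higher and 4 lower (3.91% and 7.4% of all genes), at a median of 0.03. ALDH1A1, which makes retinoic acid, had 155 and 260 UPM in members, a log2 ratio of 0.75 (0.48 to 1.01), but 49.4 and 247 in neurons. RBP4, a retinol carrier in blood, had 8.88 and 41.6 in members and 3.92 and 21.2 in neurons, so that neither gene was particular to the members.

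Redox genes under NRF2 had a median log2 ratio of 0.29 over 22 genes, 18 of them above 0 against 52.5% of all genes, with 1 at least 2-fold higher (PGD, of the pentose phosphate pathway, at 71 and 40 UMIs) and none lower. In the ACSM3 type the median of the list was 0.37, where all genes had a median of 0.09 and 57.0% above 0. PRDX6, a peroxiredoxin, was an exception with 530 and 282 UPM, a log2 ratio of -0.91 (-1.14 to -0.69), while in neurons it was higher, with 83.7 and 188. The library difference of PRDX6 thus had opposite directions in the CPM type and in neurons.

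Transport genes varied in both directions. Of 28 anion and fluid transport genes measured, 1 was at least 2-fold higher and 4 lower (3.91% and 7.4% of all genes), at a median log2 ratio of -0.02, and CFTR was among the 4. AQP5, a water channel of glands and surface epithelium, had 80.3 and 27.7 UPM (199 and 18 UMIs), a log2 ratio of -1.53 (-2.32 to -0.84), and 67.9 and 29.4 in the ACSM3 type, against 8.90 and 8.77 in neurons. KCNQ1 and SLC4A10, the other lower genes, had 4 and 2 UMIs in the knockout members. SCNN1G, a subunit of the epithelial sodium channel, was higher, with 18.6 and 38.5 UPM. SLC23A2, a vitamin C carrier and one of 20 carriers measured, had 374 and 552, and SLCO4C1, an organic anion carrier, 272 and 373 in the CPM type and 359 and 953 in the ACSM3 type.

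Inflammatory and acute phase genes had 1 member at least 2-fold higher and 6 lower among 22 measured (3.91% and 7.4% of all genes), at a median log2 ratio of -0.05. LCN2, which withholds iron from bacteria, had 220 UPM in wild type and 81.7 in knockout members, a log2 ratio of -1.43 (-1.86 to -1.02). In the ACSM3 type it had 83.3 and 69.3, and in neurons 53.6 and 61.8. IL18, a cytokine of epithelial cells, had 56.9 and 20.0 in the CPM type and 47.1 and 53.2 in the ACSM3 type. Of the 4 groups of nuclei compared, LCN2 and LGALS13 were highest in wild type members of the CPM type. Interferon response genes had none at least 2-fold higher and 2 lower among 29, near the shares of all genes (3.91% and 7.4%), at a median of -0.08.

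LGR4, a receptor that strengthens Wnt signals, had 472 and 854 UPM in the CPM type, a log2 ratio of 0.85 (0.71 to 1.00), and 394 and 724 in the ACSM3 type, a log2 ratio of 0.88. In neurons it had 193 and 249, a log2 ratio of 0.37, so that the larger ratios were in the sustentacular types. HES6, a bHLH factor of the Notch list, had 144 and 10 UMIs, 58.1 and 15.4 UPM, and its 144 wild type UMIs lay in 71 members, with 16 in 1 nucleus. MAML2, a Notch coactivator, had 1038 and 1038 UPM.

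Among 40 transcription factors measured, 5 were at least 2-fold higher (FOXO1, RORA, FOXP2, NR2F2 and ELF3) and 1 lower (PPARG, at 40 and 3 UMIs), against 3.91% and 7.4% of all genes, at a median log2 ratio of 0.00. FOXO1, which acts under insulin and stress signals, had 121 and 243 UPM, a log2 ratio of 1.01 (0.73 to 1.30), against 0.13 in the ACSM3 type and 0.60 in neurons. RORA, a nuclear receptor of the circadian clock, had 66.6 and 136, a log2 ratio of 1.03 (0.64 to 1.41), and 1.07 in neurons. NFIA, a nuclear factor I protein, had 1756 and 1501, a log2 ratio of -0.23, and MEIS1 had 330 and 319. MEIS1 thus differed between the types and hardly between the libraries, as CPM did.

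The medians of the other lists lay between -0.44 and 0.28. Notch pathway genes had 0.03 over 19, growth factors and receptors 0.01 over 34, lipid and steroid genes 0.02 over 44, junction and polarity genes -0.14 over 37, surface peptidases -0.10 over 16, ABC and P-type ATPase transporters -0.17 over 28, carriers 0.28 over 20, unfolded protein genes 0.16 over 30 and immediate early genes -0.44 over 12. Zonal genes of rodent mucosa had -0.05 over 18 genes: NCAM2 had 155 and 55.5 UPM in the CPM type and 756 and 204 in neurons, and ACSM4 had 53.7 and 53.9. ACSM4 was therefore about level between the libraries within the CPM type.

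**Figure D5:**
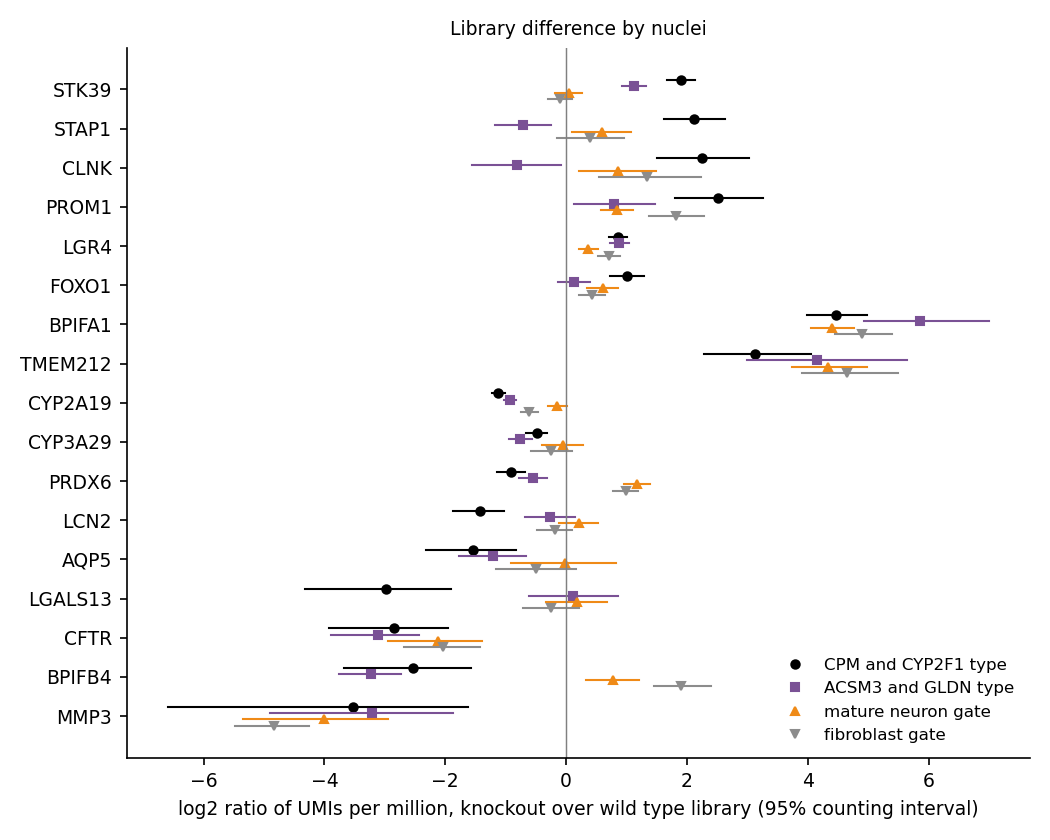
Log2 ratio of UPM, knockout over wild type library (x axis, with 95% counting intervals), of 17 genes in the CPM type, the ACSM3 type, the mature neuron gate and the fibroblast gate. STK39 is at 1.90 and 1.12 in the sustentacular types and near 0 in the other gates, and BPIFA1 is between 4.39 and 5.85 in all of them.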

How the data were processed

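Unique molecular identifier counts per gene and nucleus were used as deposited by the authors, 1 table per library. The submitters' processing notes name Cell Ranger, Seurat 4.0 and R 4.0.2, while the genome build and aligner settings were not given in the sources used here. The libraries held 18731495 (wild type) and 16623086 (knockout) UMIs over 25880 genes. Nuclei with at least 1000 UMIs were kept, no doublet was removed (by its default cutoff, Scrublet marked 1 nucleus of either library and so had not worked), and counts were summed per library and type with Python 3.11.15, numpy 2.4.6 and scipy 1.17.1. Intervals at 95% were exact Poisson for levels, Clopper-Pearson for shares, conditional binomial for ratios of counts and log-normal for ratios of shares. A gene at 0 was set to the floor of 3 counts in ratios. Scripts were tested on simulated data. The members and the gene lists were chosen with earlier results of these data known.

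Genes were named by rule: those of the selection, CFTR, the 12 in each direction of both comparisons, and in each list the 3 with most UMIs and those past 2-fold. Marker genes and the few others named outside it were chosen after their values were seen. Alternatives were other UMI and gene minimums, sums, margins and barred genes, CYP2F1 left out, thinning, equal weights, size factors and removal of the highest Scrublet scores (scanpy 1.11.5). Leaving out neuron-gene nuclei, the deepest nuclei or the nucleus richest in a gene, and CPM alone in the sum, were chosen after seeing the data.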

Additional observations from a re-analysis of the deposited data

Results flagged for a closer look

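The knockout to wild type ratio had opposite directions in the sustentacular types, with counting intervals on either side of 0, for 5 named genes. These differences between types compare single libraries and were not tested. STAP1 had a log2 ratio of 2.12 in the CPM type and -0.71 in the ACSM3 type, and CLNK, another adaptor protein, 2.26 and -0.81. Both genes were concentrated in few nuclei. In the wild type ACSM3 type, the richest nucleus of each gene held 51 of 98 STAP1 UMIs and 21 of 43 CLNK UMIs. The counting intervals do not cover such clustering. EPHX1, the epoxide hydrolase, had -0.28 and 0.29, and ADAM28, a membrane protease, -0.23 and 0.57. SLC6A11, a GABA carrier that was also listed as a Bowman gland marker, had -2.29 and 2.90. Its wild type and knockout UMIs were 56 and 3 in the CPM type and 4 and 33 in the ACSM3 type. With none of the barred genes, its log2 ratio in the CPM type was 0.24.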

How the results depend on the processing

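The CPM type was the smaller share of the knockout library under each of 9 alternatives. Its share of wild type nuclei was 11.7% with a sum of at least 4, 11.04% with a sum more than 2 times the other, 7.65% with none of the barred genes, 10.5% without CYP2F1, 8.96% with CPM alone, 10.4% without neuron-gene nuclei and 9.84% after thinning. In the knockout library it was 4.23% at 2000 UMIs, 2.87% with a sum of at least 4, 2.78% with a sum more than 2 times the other, 2.06% with none of the barred genes, 2.72% with CPM alone and 2.70% after thinning. Of both types, the wild type share was 61.2% without CYP2F1, 55.1% with CPM alone and 74.0% after thinning, and the knockout share 24.0% with CPM alone. The cause of these shifts was not tested.

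Genes at least 2-fold higher in the knockout library numbered 181 at 50 UMIs and 3525 with no minimum, and lower ones 378 at 50 UMIs. Between the types, higher genes numbered 27 at 50 UMIs, 268 with no minimum and 27 with CPM alone, and lower genes 40, 148 and, with the highest doublet scores removed, 117. The 268 and 148 with no minimum can likewise include genes that pass only through the floor. CFTR had a log2 ratio of -1.69 with none of the barred genes. Of knockout to wild type ratios past 2-fold, sign changes were found for DTHD1 (-0.092) and ATP10A (-0.68) with doublet scores removed, for ATP10A (-0.55) without its richest nucleus, for ATP10B (0.60) with equal weights and for TMPRSS4 (-0.35) with a sum more than 2 times the other. With none of the barred genes they were found for ABCA9 (0.043), ABCA8 (0.31), SLC6A11 (0.24), SLC4A10 (0.24) and TAP1 (0.043). DSCAM had 0.12 between types in the knockout library without neuron-gene nuclei. Among ratios under 2-fold, the sign changed under at least 1 alternative for SLC12A2, FOXP1 and SULT1E1, whose intervals had excluded 0, and for 17 genes whose intervals held 0. Apart from the 10 sign changes past 2-fold, 1617 values for 131 named genes stayed within the counting interval and 72 did not. Between types the numbers for 28 genes were 597 and 74.

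Each genotype was 1 library of 1 animal, so genotype, animal, dissection and library cannot be told apart, and no paired analysis was possible because no replicate exists. The 169 knockout members set the precision: with 649060 UMIs, genes at few counts have intervals wider than 2-fold.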
